A study of Mus musculus with 2 samples.

Results

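REST, the RE1-silencing transcription factor, and 5 genes of the corepressors it recruits were followed in 2 mouse striatal cell lines that differ in huntingtin. The 6 members are Rest, the CoREST genes Rcor1, Rcor2 and Rcor3, and the SIN3 genes Sin3a and Sin3b. They were taken by name from the authors' deposited table of 23176 genes. All 6 had a test, among 12740 tested genes.

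REST is a zinc finger repressor that binds the RE1 element of many neuronal genes and keeps them silent outside neurons. One end of the protein recruits a SIN3 scaffold and the other a CoREST scaffold, and both scaffolds carry histone deacetylases. CoREST also carries the histone demethylase LSD1. Normal huntingtin is known to hold REST in the cytoplasm of neurons, and expanded huntingtin is known to do so less well, with more REST in the nucleus and less expression of targets such as Bdnf. That regulation acts on where the protein is, which RNA levels do not show.

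The STHdhQ111 line has the genotype HdhQ111/Q111, in which a longer CAG tract in the huntingtin gene (Htt) encodes an expanded polyglutamine stretch. The STHdhQ7 line has the genotype HdhQ7/Q7. Both come from embryonic day 14 striatum of the strain 129SvEv/CD1 and were used at fewer than 15 passages. Both were grown at 33 °C and kept at 39 °C for 2 days before the experiment so that division stopped. Polyadenylated RNA was sequenced. The title of each sample names 3 replicates, and the table gives 1 combined FPKM (fragments scaled to transcript length and library size) per line, without a replicate spread. Each genotype is 1 line, so genotype and line history cannot be told apart.

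The depth is unknown, and the errors used here are those implied by the authors' Cuffdiff statistic. Genes with a q of 0.05 or less are referred to as called. Of the 12740 tested genes 13.5% were called, 6.35% higher and 7.17% lower in STHdhQ111, and the smallest called change was 2.03-fold. Neuronal markers were mostly absent. Of 8 pan-neuronal markers 6 were under 1 FPKM in both lines, as were 7 of 8 markers of medium spiny neurons, the main striatal cell type, and Drd1a was listed at 0 in both. The exceptions were Mtap2, Tubb3 and Penk. Of the 6 progenitor markers Nes, Sox2 and Pax6 were called lower. Vim, the most abundant of them (2483 FPKM in STHdhQ111 and 3303 FPKM in STHdhQ7), and Msi1 were not called, and Fabp7 had no test. The 6 mesenchymal markers summed to 2573 FPKM in STHdhQ111 and 976 FPKM in STHdhQ7, with Col1a1 and Col1a2 called higher. Col3a1, Pdgfrb and Acta2 were not called, and Lum had no test. Acta2 was listed at 311 FPKM in STHdhQ111 and 342 FPKM in STHdhQ7. Col1a1 (1487 FPKM in STHdhQ111 and 452 FPKM in STHdhQ7) and Col1a2 (533 FPKM in STHdhQ111 and 11.5 FPKM in STHdhQ7) held most of the difference between the sums. The part of these differences in the values below was not tested. In RNA from whole cultures, fewer cells of a type and less RNA per cell cannot be told apart.

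Rest and its scaffolds were expressed in both lines, and no member was called. Of the 6 members 0 were called, against 13.5% of all tested genes, and 1, Rcor2, had an unadjusted p below 0.05 in the authors' Cuffdiff test. The 6 members summed to 101.3 FPKM in STHdhQ111 and 100.8 FPKM in STHdhQ7. Most of each sum was Sin3b, at 59.4 FPKM in STHdhQ111 and 52.4 FPKM in STHdhQ7. The CoREST genes summed to 16.7 FPKM in STHdhQ111 and 22.8 FPKM in STHdhQ7. The median log2 ratio of (FPKM + 0.5) of the 6 members was -0.23, against -0.05 over all tested genes, with 4 members below 0 and 2 above.

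Rest itself was listed at 13.4 FPKM in STHdhQ111 and 10.5 FPKM in STHdhQ7. The level lay above 59.6% of tested genes in STHdhQ111 and above 51.8% in STHdhQ7, so the repressor gene was expressed near the middle of the tested range. For Rest, the authors' deposited table gave a log2 fold change of 0.36 (implied standard error 0.39, q = 0.782). The 95% interval this error gives runs from 0.762-fold to 2.17-fold, so a rise to about that upper limit and a modest fall are both within the error. The table is by gene and does not separate the full-length repressor from REST4, a truncated neuronal splice form. The Rest locus (mm9, chromosome 5, 77694519 to 77712722) also holds the row Mir5098, listed at 10.7 FPKM in STHdhQ111 and 4.18 FPKM in STHdhQ7. Whether this pair of rows shares reads was not tested. The named genes whose values over the 2 lines lay nearest to those of Rest were Gys1, Bin3 and Ehmt1, at distances of 0.0084, 0.0091 and 0.026 on the log2 scale of (FPKM + 0.5).

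None of the CoREST genes was called, and Rcor1 had the highest level of the family in both lines. Rcor1 encodes CoREST1, the scaffold that joins LSD1 to the deacetylases (chromosome 12, 112278009 to 112351597). It was listed at 10.03 FPKM in STHdhQ111 and 10.9 FPKM in STHdhQ7. For Rcor1, the authors' deposited table gave a log2 fold change of -0.11 (implied standard error 0.42, q = 0.978). Rcor1 had the most similar level in the 2 lines of any CoREST gene.

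Rcor2 encodes CoREST2, a paralog known from progenitors and embryonic stem cells (chromosome 19, 7344254 to 7349715). It was listed at 2.54 FPKM in STHdhQ111 and 5.72 FPKM in STHdhQ7. For Rcor2, the authors' deposited table gave a log2 fold change of -1.17 (implied standard error 0.54), and the unadjusted p of 0.029 became a q of 0.158 in the authors' table. The 95% interval of Rcor2 runs from 0.215-fold to 0.92-fold, which leaves out equality, but the change did not pass the threshold over all genes. Its level lay above 23.2% of tested genes in STHdhQ111 and above 36.7% in STHdhQ7.

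Rcor3, the gene of CoREST3 (chromosome 1, 193924343 to 193974907), was listed at 4.13 FPKM in STHdhQ111 and 6.24 FPKM in STHdhQ7. For Rcor3, the authors' deposited table gave a log2 fold change of -0.59 (implied standard error 0.53, q = 0.689). The 3 CoREST genes together summed to 16.7 FPKM in STHdhQ111 and 22.8 FPKM in STHdhQ7. Rcor1 made up 60.1% of that sum in STHdhQ111 and 47.6% in STHdhQ7. Rcor2 made up 15.2% in STHdhQ111 and 25.1% in STHdhQ7, and Rcor3 24.7% in STHdhQ111 and 27.4% in STHdhQ7. These shares are descriptions: the difference between the log2 fold changes of Rcor1 and Rcor2 was 1.06 with a 95% interval from -0.27 to 2.39.

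The SIN3 genes were unequal in level. Sin3b (chromosome 8, 75247187 to 75282102) was listed at 59.4 FPKM in STHdhQ111 and 52.4 FPKM in STHdhQ7, above 89.6% of tested genes in STHdhQ111 and above 88.4% in STHdhQ7. For Sin3b, the authors' deposited table gave a log2 fold change of 0.18 (implied standard error 0.56, q = 0.972). Sin3a, whose product is the more widely studied of the pair (chromosome 9, 56919847 to 56976175), was listed at 11.8 FPKM in STHdhQ111 and 15.2 FPKM in STHdhQ7. For Sin3a, the authors' deposited table gave a log2 fold change of -0.37 (implied standard error 0.42, q = 0.809). Sin3b was 5.05 times the level of Sin3a in STHdhQ111 and 3.45 times in STHdhQ7.

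**Figure D1:**
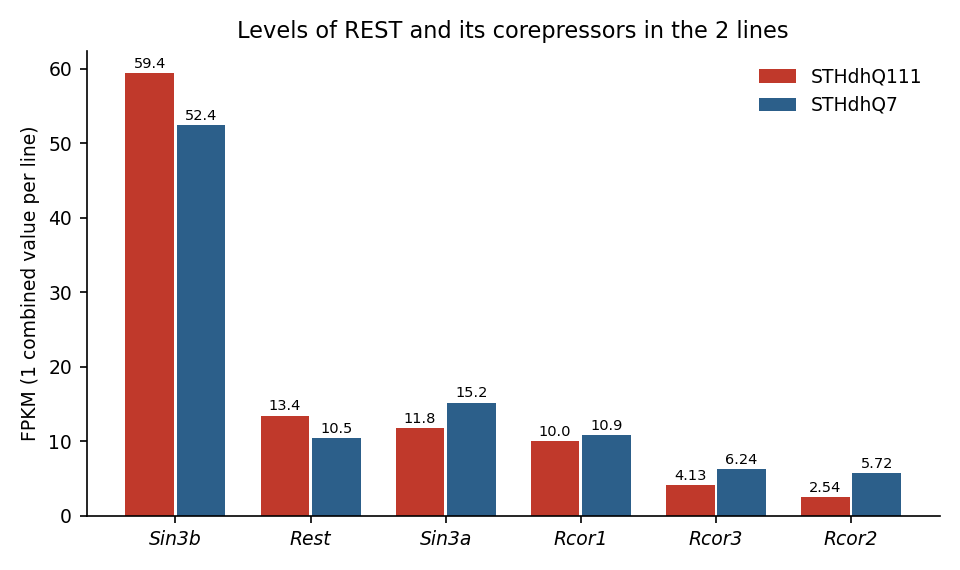
FPKM of Rest and its 5 corepressor genes on a linear axis, as 1 combined value per line without an error, with STHdhQ111 in red and STHdhQ7 in blue. Sin3b was the most abundant in both lines (59.4 FPKM in STHdhQ111 and 52.4 FPKM in STHdhQ7), and Rcor2 the least (2.54 FPKM in STHdhQ111 and 5.72 FPKM in STHdhQ7).

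The order of the levels was Sin3b, Rest, Sin3a, Rcor1, Rcor3 and Rcor2 in STHdhQ111. In STHdhQ7 it was Sin3b, Sin3a, Rcor1, Rest, Rcor3 and Rcor2. The table gives no error for a single level, so neighbours as close as Rest, Sin3a and Rcor1 cannot be ranked against their spread. Among the 15 pairs of members, the 95% interval of the difference in log2 fold change left out 0 for 1 pair, Rest against Rcor2 (1.53, interval from 0.24 to 2.83). These intervals are not adjusted for 15 pairs and treat the errors of the 2 genes as independent. Between 97.5% and 100% of the 36-base words in the GENCODE M21 transcripts of Rest, Rcor1, Rcor2, Sin3a and Sin3b occurred in no other gene, and 92.2% of those of Rcor3 did.

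**Figure D2:**
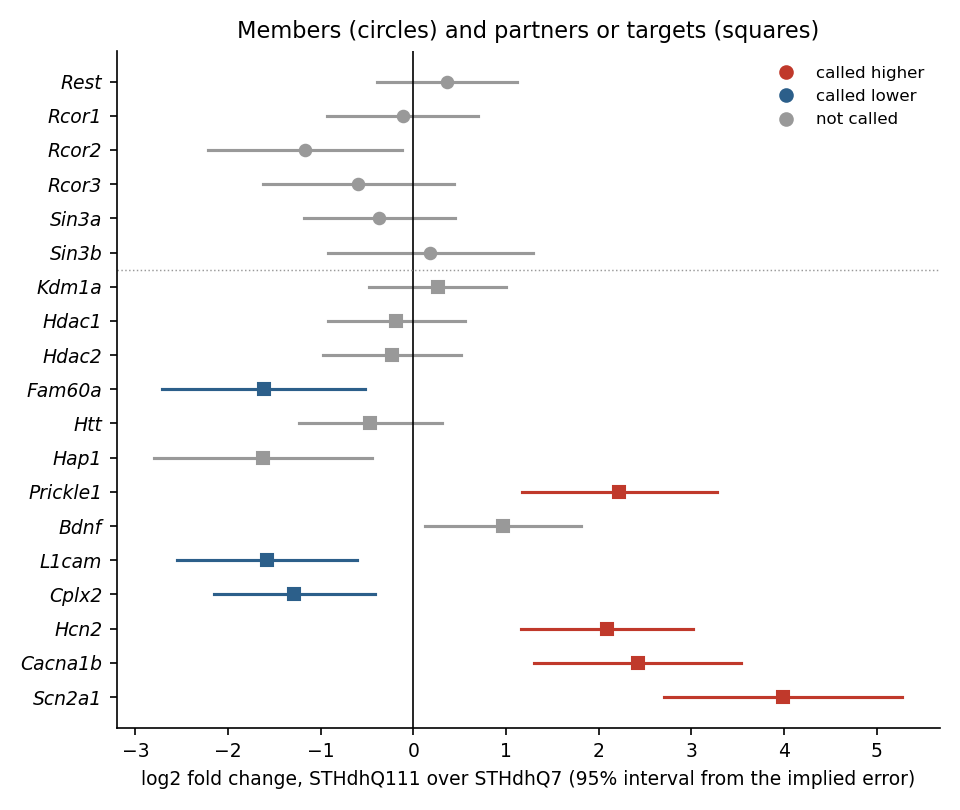
Log2 fold change of STHdhQ111 over STHdhQ7 (horizontal axis) in the authors' deposited table, with lines for the 95% interval from the implied error. Circles are the 6 members, and squares are selected partners, regulators of REST and targets. The members span -1.17 for Rcor2 to 0.36 for Rest and none is called, while Prickle1, Hcn2, Cacna1b and Scn2a1 are called higher and Fam60a, L1cam and Cplx2 called lower. Stmn2 (-9.21) and Srrm4 (-5.34), also called lower, are not plotted.

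The listed enzymes and subunits that act with CoREST were expressed in both lines. The errors leave room for sizable changes. The 95% interval ran from 0.719-fold to 2.00-fold for Kdm1a and, the widest, from 0.346-fold to 2.68-fold for Zmym3. Of 19 listed CoREST partners all 19 were tested and 0 were called in the authors' Cuffdiff test, against 13.5% of all tested genes. At an unadjusted p below 0.05 the count was also 0. Their log2 ratios of (FPKM + 0.5) ran from -0.24 to 0.44 with a median of -0.05, close to that of all tested genes. Kdm1a, which encodes the demethylase LSD1, was listed at 23.1 FPKM in STHdhQ111 and 19.3 FPKM in STHdhQ7. The deacetylase genes Hdac1 (58.7 FPKM in STHdhQ111 and 66.6 FPKM in STHdhQ7) and Hdac2 (49.3 FPKM in STHdhQ111 and 57.8 FPKM in STHdhQ7) serve both scaffolds. Of the most abundant partners, the corepressor gene Ctbp1 was listed at 77.9 FPKM in STHdhQ111 and 80.1 FPKM in STHdhQ7. The H3K9 methyltransferase gene Ehmt2 was listed at 67.3 FPKM in STHdhQ111 and 63.7 FPKM in STHdhQ7, and the DNA-binding subunit gene Hmg20b at 64.2 FPKM in STHdhQ111 and 66.5 FPKM in STHdhQ7. Kdm1a exceeded Rcor1 by 2.30 times in STHdhQ111 and 1.77 times in STHdhQ7.

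Among the SIN3 partners 1 of 26 tested genes was called, Fam60a, and it was lower. That is 3.85%, against 13.5% of all tested genes. Fam60a, a subunit of the SIN3 deacetylase complex, fell to 1.80 FPKM in STHdhQ111, against 5.53 FPKM in STHdhQ7. For Fam60a, the authors' deposited table gave a log2 fold change of -1.62 (implied standard error 0.56, q = 0.0321). The inhibitor of growth gene Ing1 was listed at 10.7 FPKM in STHdhQ111 and 19.6 FPKM in STHdhQ7, with a q of 0.154 in the authors' table. The median log2 ratio of (FPKM + 0.5) of the list was -0.12, with 15 genes below 0 and 11 above. By the mean FPKM of the lines, the most abundant uncalled partners were the Max-binding repressor gene Mxd4 (75.2 FPKM in STHdhQ111 and 58.9 FPKM in STHdhQ7), Hdac1, and the histone chaperone gene Rbbp4 (45.3 FPKM in STHdhQ111 and 61.9 FPKM in STHdhQ7), whose mean of 53.61 FPKM was next to the 53.55 FPKM of Hdac2. In STHdhQ111 alone, Hdac2 and Brms1 (56.7 FPKM in STHdhQ111 and 46.8 FPKM in STHdhQ7) were above Rbbp4.

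Of the genes that act on REST itself, Prickle1 and Srrm4 were called. Of 26 listed genes 25 were tested, 1 was called higher, 1 was called lower and 23 were not called, so 8% were called against 13.5% of all tested genes. Their median log2 ratio of (FPKM + 0.5) was 0.02. Prickle1, whose product (also called RILP) binds REST and helps it reach the nucleus, rose to 3.00 FPKM in STHdhQ111, against 0.641 FPKM in STHdhQ7. For Prickle1, the authors' deposited table gave a log2 fold change of 2.22 (implied standard error 0.53). Its paralog Prickle2 was listed at 1.72 FPKM in STHdhQ111 and 4.18 FPKM in STHdhQ7 and was not called (log2 fold change -1.28, q of 0.0822, in the authors' deposited table).

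Srrm4 encodes a neuronal splicing factor that turns Rest transcripts into the truncated REST4 form and that REST is known to repress in turn. It fell to 0.0141 FPKM in STHdhQ111, against 0.57 FPKM in STHdhQ7. For Srrm4, the authors' deposited table gave a log2 fold change of -5.34 (implied standard error 1.43, q = 0.00259). Both values are low, and on the log2 scale of (FPKM + 0.5) the ratio was -1.06.

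Huntingtin and the proteins known to form a complex with it and REST were measured too. Htt was listed at 2.83 FPKM in STHdhQ111 and 3.91 FPKM in STHdhQ7 and was not called. Hap1, whose product links huntingtin to that complex, was listed at 1.73 FPKM in STHdhQ111 and 5.32 FPKM in STHdhQ7, and its q of 0.0511 in the authors' deposited table lay just outside the threshold. Dctn1, a dynactin subunit of the complex, was listed at 103 FPKM in STHdhQ111 and 82.4 FPKM in STHdhQ7. Other abundant uncalled regulators were Ctnnb1 (235.7 FPKM in STHdhQ111 and 192.8 FPKM in STHdhQ7), the beta-catenin gene, and Ctdsp2 (92.8 FPKM in STHdhQ111 and 105.9 FPKM in STHdhQ7), a phosphatase gene of the family that stabilises REST. Btrc, the ubiquitin ligase subunit that marks REST for destruction, was listed at 4.45 FPKM in STHdhQ111 and 4.48 FPKM in STHdhQ7. Its counterpart Usp7, a deubiquitinase that spares REST, was listed at 19.3 FPKM in STHdhQ111 and 16.6 FPKM in STHdhQ7. Neither Btrc nor Usp7 was called.

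**Figure D3:**
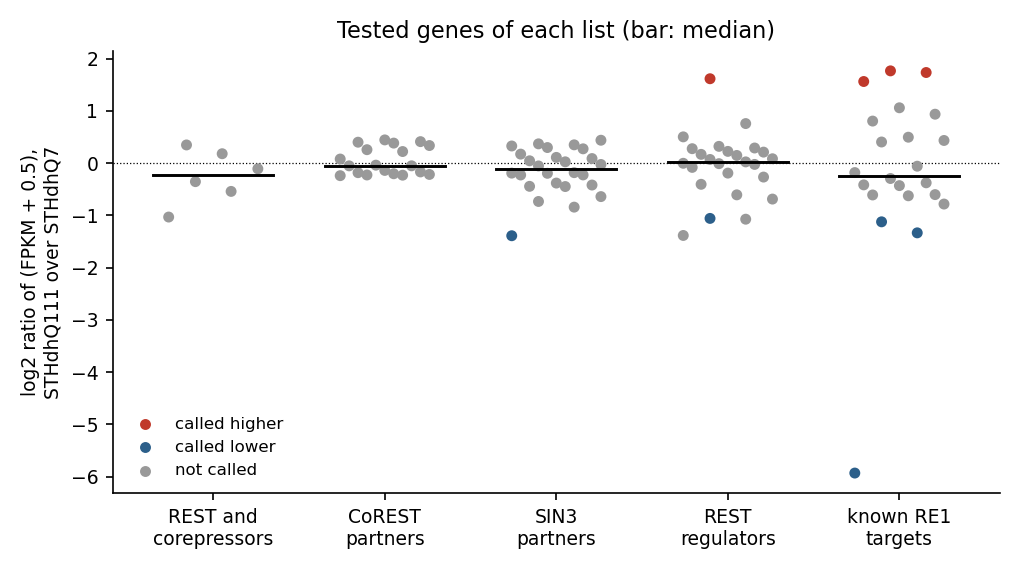
Log2 ratio of (FPKM + 0.5) of STHdhQ111 over STHdhQ7 (vertical axis) for each tested gene of 5 lists, with called genes in colour and the list median as a bar. The members and the CoREST partners hold no called gene, the SIN3 partners 1, the regulators 2 and the known RE1 targets 6.

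The genes that REST is known to silence through RE1 were mostly near 0 in both lines. Of 63 known targets, 46 (73.0%) were under 1 FPKM in both lines, against 48.2% of all genes in the table, and 6 were listed at 0 in both. Only 22 had a test. Of these 3 were called higher and 3 lower, so 27.3% were called against 13.5% of all tested genes. The tested targets are those with enough reads to be tested, so this share does not describe the full list of 63. Their median log2 ratio of (FPKM + 0.5) was -0.24, with 13 genes below 0 and 9 above.

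The targets called higher all encode ion channels. Scn2a1, a sodium channel gene, rose to 1.20 FPKM in STHdhQ111, against 0.0753 FPKM in STHdhQ7. The STHdhQ7 value is near 0, and on the log2 scale of (FPKM + 0.5) the ratio of Scn2a1 was 1.56. Hcn2, a pacemaker channel gene, rose to 5.90 FPKM in STHdhQ111, against 1.38 FPKM in STHdhQ7. Cacna1b, an N-type calcium channel gene, rose to 3.06 FPKM in STHdhQ111, against 0.571 FPKM in STHdhQ7. In the authors' deposited table the log2 fold changes were 3.99 for Scn2a1, 2.09 for Hcn2 and 2.42 for Cacna1b, with implied standard errors of 0.66 for Scn2a1, 0.47 for Hcn2 and 0.57 for Cacna1b.

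The targets called lower serve axon growth, adhesion and exocytosis. Stmn2, a microtubule regulator, had the steepest fall of the list, to 0.0563 FPKM in STHdhQ111, against 33.5 FPKM in STHdhQ7. The STHdhQ111 value is near 0, and on the log2 scale of (FPKM + 0.5) the ratio of Stmn2 was -5.93. The adhesion molecule gene L1cam fell to 1.60 FPKM in STHdhQ111, against 4.80 FPKM in STHdhQ7 (log2 fold change -1.58, implied standard error 0.50, in the authors' deposited table). The complexin gene Cplx2 fell to 2.25 FPKM in STHdhQ111, against 5.49 FPKM in STHdhQ7 (log2 fold change -1.29, implied standard error 0.44, in the authors' deposited table). The called targets therefore did not share a direction.

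Bdnf, the trophic factor gene for which the huntingtin and REST link is best known, was listed at 23.6 FPKM in STHdhQ111 and 12.1 FPKM in STHdhQ7. For Bdnf, the authors' deposited table gave a log2 fold change of 0.96 (implied standard error 0.43), an unadjusted p of 0.0244 and a q of 0.139. It was not called, and its 95% interval runs from 0.12 to 1.80 on the log2 scale. Vgf, a neuropeptide precursor gene, was listed at 0.676 FPKM in STHdhQ111 and 0.173 FPKM in STHdhQ7 and was not called (q of 0.0598 in the authors' deposited table). In the other direction, Nrxn2 was listed at 0.122 FPKM in STHdhQ111 and 0.570 FPKM in STHdhQ7. It was not called (q of 0.0687 in the authors' deposited table). The abundant target Dnm1, the neuronal dynamin gene, was listed at 32.6 FPKM in STHdhQ111 and 24.5 FPKM in STHdhQ7 and was not called either.

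**Figure D4:**
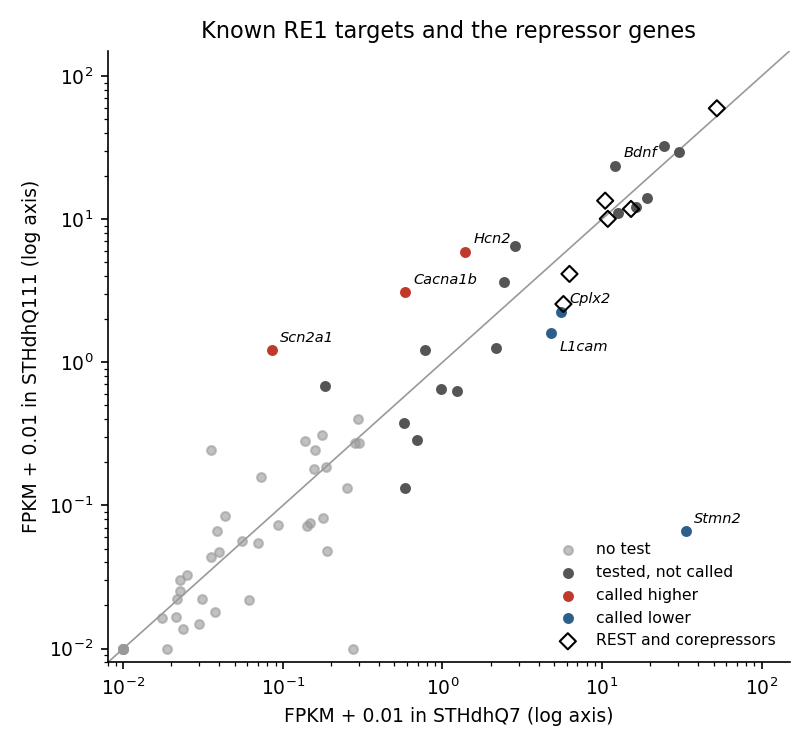
FPKM + 0.01 of 63 known RE1 targets in STHdhQ111 (vertical) and STHdhQ7 (horizontal) on log axes, with the 6 repressor genes as diamonds and a line of equality. Of the 63 targets 46 lie under 1 FPKM in both lines, the repressor genes lie between 2.54 and 59.4 FPKM, and Stmn2 lies farthest below the line.

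The RE1 element was searched in sequence as a left arm TTCAGCACC, 2 free bases and a right arm GGACAGCGC, on both strands, with up to 2 mismatches over the 18 fixed bases. RefSeq promoter windows (GRCm38.p6, 250 bases before to 50 after a gene's start) of 27025 genes held a match in 12 genes, 0.0444% of them. The GENCODE M21 transcripts (GRCm38) of 55341 gene names held one in 80, 0.145% of them. Of the known targets, 3 of the 37 with a promoter window and 9 of the 63 with a transcript held a match. A match is only a description of sequence, and windows this short leave out most introns and distal elements.

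None of the known targets called higher or lower held a match in either search. The matches of 5 promoters and 5 transcripts are shown, in known targets and in Lhx3, Ogdhl and Srrm4. Binding of REST to them was not tested. Each runs 5′ to 3′ along the motif, with the arms in capitals and the free bases in lower case.
Lhx3: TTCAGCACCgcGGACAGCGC
Gria2: TTTAGCACCgcGGACAGCGC
Celsr3: TTCAGCACCgtGGGCAGCAC
Syn1: TTCAGCACCgcGGTCAGAGC
Ogdhl: GTCAGCACCtcGGACAGCGA
Chrnb2: TTCAGCACCacGGACAGCGC
Bdnf: TTCAGCACCttGGACAGAGC
Grin1: TTCAGCACCtcGGACAGCAC
Srrm4: TTCAGCACTtcGGACAGCGC
Vgf: TTCAGCACGctGGACAGCGC

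Lhx3 and Chrnb2 matched every fixed base, Gria2, Bdnf, Grin1, Srrm4 and Vgf had 1 mismatch, and Celsr3, Syn1 and Ogdhl had 2. Counted along the gene, the Lhx3 promoter match began at -43 from the start, the Celsr3 match at -127 and the Syn1 match at -232. The Ogdhl match began at -105, and all of these lay on the gene's own strand. The Gria2 promoter match lay on the opposite strand, with its first base along the gene at -173. The transcript matches of Chrnb2, Bdnf, Grin1 and Srrm4 lay on the transcript's own strand, and that of Vgf on the opposite strand.

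Most genes with such a match were near 0. Of the 70 genes with a match in either search that are in the table, 48 (68.6%) were under 1 FPKM in both lines, against 48.2% of all genes. The share depended on the limit. With up to 3 mismatches it was 64.3% of 28 genes for promoter windows and 45.6% of 241 genes for transcripts. The 3 neuronal receptor genes shown were among the 48. Chrnb2, a nicotinic receptor subunit, was listed at 0.0716 FPKM in STHdhQ111 and 0.168 FPKM in STHdhQ7. Gria2, an AMPA receptor subunit, was listed at 0.0653 FPKM in STHdhQ111 and 0.139 FPKM in STHdhQ7. Grin1, the obligate NMDA receptor subunit, was listed at 0.0631 FPKM in STHdhQ111 and 0.0837 FPKM in STHdhQ7.

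Of the 26 tested genes with a match, 2 were called higher and 5 lower, 26.9% against 13.5% of all tested genes. Promoter windows held 4 of the 26, with 1 called higher. The transcripts, searched only after the data were seen, held 22, with 1 called higher and 5 lower. With up to 3 mismatches the called share was 16.7% of 12 tested genes for promoter windows and 19.0% of 142 for transcripts. Only genes with enough reads were tested. Among the 26, the 2 called higher were Ogdhl (6.65 FPKM in STHdhQ111 and 2.76 FPKM in STHdhQ7) and Evc (16.2 FPKM in STHdhQ111 and 7.30 FPKM in STHdhQ7). The 5 called lower were Srrm4, Klhdc8a (11.9 FPKM in STHdhQ111 and 48.2 FPKM in STHdhQ7), Pcdh1 (1.05 FPKM in STHdhQ111 and 3.65 FPKM in STHdhQ7), Syne2 (1.88 FPKM in STHdhQ111 and 4.28 FPKM in STHdhQ7) and Vps13c (5.45 FPKM in STHdhQ111 and 13.7 FPKM in STHdhQ7). Neither the promoter windows of 5 members nor the transcripts of all 6 held a match, and Rest had no promoter window. The search found a match in only 3 of 37 known targets by promoter window and 9 of 63 by transcript. A missing match therefore does not show that a member lacks the element.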

How the data were processed

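The submitters' processing notes name TopHat 1.4.0, Bowtie 0.12.7, Cufflinks 2.0.2 and Cuffdiff, and the mm9 build. The options and the gene annotation were not given in the sources used here. In the deposited table, per the file headers, each gene has 1 FPKM per line, which the authors combined over replicates. The authors also deposited a log2 fold change, a score (the test statistic), a p-value and a q-value for each gene. The labels do not say whether replicates were grown separately, and if they were not, the p-values reflect technical variation.

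Each p-value matched the normal tail of its deposited statistic to within 2.7e-06, so the size of the log2 fold change over that of the statistic gives the implied standard error, and 1.96 of these give each 95% interval. No other test could be run on 1 value per line. Starts were raised by 1, since end minus start equalled the RefSeq length for 7132 symbols, against 453 with 1 added. Log2 ratios used a pseudocount of 0.5 FPKM. The RE1 search used promoter windows and, added after seeing the data, transcripts, with symbols matched to the table. It and the adjustment were tested on simulated data. Python 3.11.15, numpy 2.4.6 and pandas 2.3.3 were used.

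The members and lists were chosen with earlier results of these data known. Named genes are the members, Htt, called genes of each list, up to 3 abundant uncalled ones and the 3 nearest to Rest. Kdm1a, Hdac2, Zmym3, Ing1, Brms1, Hap1, Prickle2, Btrc, Usp7, Vgf, Nrxn2 and the genes with RE1 matches were named after their values were seen. Some genes that this rule would name are not reported here.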

Additional observations from a re-analysis of the deposited data

How the results depend on the processing

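The count of 0 called members held at a q of 0.01, at a q of 0.1 and when the authors' p-values were adjusted only over tested genes with 1 FPKM or more in either line. The log2 ratio of each member kept its sign with pseudocounts of 0.1 and 1 and after subtracting the median of genes averaging 1 FPKM or more (-0.05), from -1.14 to -0.92 for Rcor2 and from 0.33 to 0.40 for Rest. Counts moved by over 1.5 times in these cases. The SIN3 partners had 0 calls at a q of 0.01. The regulators of REST had 4 calls at a q of 0.1 and 1 when adjusted over expressed genes, a set that leaves out Srrm4 by construction. The RE1 search gave 1 gene for an exact match, 36 with up to 3 mismatches and 80 in transcripts. The search of longer and shorter stretches before the start was not run, since no genome sequence was used here. No paired analysis was possible because each line has 1 combined value, and for the same reason no replicate could be left out. Of the values of single genes 267 held and 3 moved, all at a pseudocount of 0.1 (Srrm4, Stmn2 and Scn2a1, with the same sign). Implied errors of 0.37 or more limit what could be called to changes of about 2-fold.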

Other observations

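Other DNA-binding repressors that recruit corepressor complexes were measured too, in a list of 13 chosen after the data were seen. Of these 5 were tested, with 3 called higher and 1 lower, 80% of the tested ones against 13.5% of all tested genes. The list was not compared with REST by a test, and the 8 without a test are not in that share. Hic1, a zinc finger repressor and tumour suppressor, rose to 28.8 FPKM in STHdhQ111, against 0.713 FPKM in STHdhQ7 (5.34 as log2 fold change, from the authors' deposited table). The mesenchymal transition factors Snai1 and Snai2 also rose, Snai1 to 14.2 FPKM in STHdhQ111, against 3.91 FPKM in STHdhQ7, and Snai2 to 28.9 FPKM in STHdhQ111, against 11.8 FPKM in STHdhQ7. Zeb2, a transcriptional repressor that also promotes this transition, fell to 1.48 FPKM in STHdhQ111, against 5.95 FPKM in STHdhQ7, while its paralog Zeb1 was listed at 19.4 FPKM in STHdhQ111 and 14.3 FPKM in STHdhQ7 and was not called. The 8 without a test, among them Gfi1, Insm1 and Scrt1, were under 1 FPKM in both lines.

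Of 17 tested corepressor scaffolds and enzymes outside the REST complexes, a list also chosen after the data were seen, 2 were called higher and 0 lower. That is 11.8%, close to the 13.5% of all tested genes. Chd3, a remodeller of the NuRD complex, rose to 31.6 FPKM in STHdhQ111, against 5.20 FPKM in STHdhQ7, whereas its paralog Chd4 was listed at 44.6 FPKM in STHdhQ111 and 55.5 FPKM in STHdhQ7. The Groucho family gene Tle1 rose to 17.6 FPKM in STHdhQ111, against 8.40 FPKM in STHdhQ7. The nuclear receptor corepressor gene Ncor1 was listed at 19.9 FPKM in STHdhQ111 and 29.1 FPKM in STHdhQ7 and was not called.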
